A study of Mus musculus with 10 samples.

Results

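Stromal cells of the adult mouse prostate were compared with the Sca-1- luminal epithelial cells sorted from the same kind of tissue. The comparison used every library that the labels call Stromal (2) and every library that they call Luminal (3), which is 5 of the 10 RNA-seq libraries of the study. The stromal cells had been sorted as Lin-/CD24-/CD49f-, and the luminal cells as Lin-/CD24high/CD49flow/Sca-1-. All came from prostates of C57BL/6 mice aged 8 to 12 weeks, with no transgene or treatment named. The other libraries were Lin-/CD24low/CD49fhigh basal cells (2) and Sca-1+ luminal cells (3). These entered the fit to estimate the spread between libraries, and counted in the filter that chose the genes tested. For all 10 libraries the labels describe growth of dissociated prostate cells on collagen-coated plates in medium with serum and dihydrotestosterone, and leave unsaid if the cells sorted for RNA came out of this culture. They name no animals or pools, so p-values measure only the spread between these libraries, which may be technical.

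The prostate is built of glands whose luminal cells make and release seminal fluid proteins under the control of androgen. The glands are wrapped in stroma, which holds smooth muscle, fibroblasts, vessels, nerves and immune cells. Stromal cells lay down the matrix and send growth factors to the epithelium. The Lin- gate removes cells with blood, immune or vessel antigens, and the remaining stromal gate has no positive marker of its own.

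The values are deposited FPKM (fragments scaled to transcript length and to the number of mapped fragments), summed per gene. A gene was tested where 1 FPKM was reached by at least 2 of all 10 libraries. In the fit to the 5 compared libraries alone, 11807 genes were tested. A tested gene was called where the Benjamini-Hochberg (BH) adjusted p of limma was under 0.05. Differences are stromal minus Sca-1- luminal on the log2(FPKM + 1) scale, which understates the change of genes with low values. Of 12433 genes tested, 6542 (52.6%) were called, 3139 higher in stroma (25.2%) and 3403 lower (27.4%). The median difference over all genes tested was -0.06. Both stromal libraries lay above all 3 luminal libraries in 34.6% of the genes tested, and below all of them in 36.4%. These shares are the background for every gene group below. A difference of 4 or more was found for 357 genes higher in stroma and for 132 lower. Across genes, the stromal pair correlated at r = 0.963 and the luminal libraries at 0.936 to 0.971, against 0.561 to 0.661 between stroma and luminal cells. The 10 most abundant genes took 16.7% and 16.8% of the summed FPKM in stroma and 38.1% to 39.4% in luminal cells, and mitochondrial genes took 1.48% to 1.52% against 3.87% to 5.34%. Without stromal library 1, 4327 genes were called, 2169 of them lower.

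**Figure D1:**
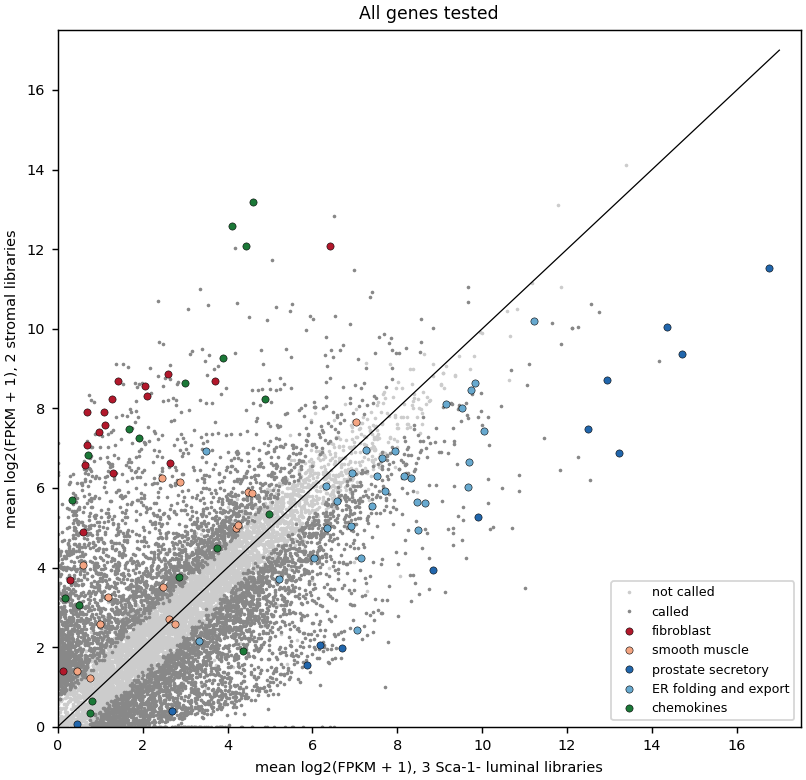
Mean log2(FPKM + 1) of each gene tested in the 2 stromal libraries (vertical axis) against the 3 Sca-1- luminal libraries (horizontal axis). Dark grey points were called by limma, light grey points were not, coloured points are members of 5 gene lists, and the line marks equal levels. Fibroblast genes lie above the line and chemokine genes mostly so, and most secretory genes lie far below it, with most endoplasmic reticulum genes nearer to it.

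The marker genes went with the labels. Ccl2, a chemokine that draws monocytes (mm10 chr11:82035571-82037453, plus strand), stood at 9476 and 9084 FPKM in the stromal libraries and at 37.9, 25.1 and 12.7 in the luminal ones. Its difference of 8.59 (SE 1.01) was the greatest increase among the genes that qualified for naming by size (limma, BH-adjusted p = 0.000196). Col1a1, a chain of type I collagen (chr11:94936224-94953042, plus strand), stood at 316.6 and 313.9 FPKM against 3.42, 1.67 and 5.68, a difference of 6.21 (SE 0.92, limma BH-adjusted p = 0.000608). Pdgfra, the receptor that marks fibroblasts, gave 77.4 and 114 FPKM against 0.629, 0.146 and 1.04. In all 3 genes both stromal libraries lay far above every luminal library.

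Pbsn (probasin), an androgen-driven secretory protein of the rodent prostate (chrX:77837901-77853623, minus strand), gave 349 and 1262 FPKM in stroma and 17560, 32810 and 33700 in luminal cells. Its difference was -5.34 (SE 0.70, limma BH-adjusted p = 0.000345). Krt8, a keratin of simple and luminal epithelium (chr15:101996698-102004482, minus strand), gave 14.1 and 88.1 FPKM against 746, 2133 and 256, a difference of -4.34 (SE 0.99, limma BH-adjusted p = 0.00521). Both stromal libraries lay below every luminal library for both genes, and stromal library 2 held more of each than stromal library 1. Without stromal library 1 the difference of Krt8 was -3.06 and was not called (limma, BH-adjusted p = 0.0681).

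The genes of the sorting antigens followed the gates in which they were used. Cd24a, which encodes CD24, gave 25.2 and 57.0 FPKM in stroma and 743, 838 and 529 in luminal cells, and was called lower (-4.15). Itga6, which encodes CD49f, gave 1.15 and 2.99 FPKM against 27.3, 40.2 and 9.86, and was also lower (-2.99). Ly6a, which encodes Sca-1 and was not used in the stromal gate, gave 1290 and 1930 FPKM against 54.3, 82.8 and 19.9, a difference of 5.10 (SE 0.63, limma BH-adjusted p = 0.000248). The stromal level of Ly6a was above every luminal library, where Sca-1 had been gated out. Cd24a and Itga6 check both gates and are no findings. Ly6a checks only the luminal gate, and its stromal level was not gated.

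**Figure D2:**
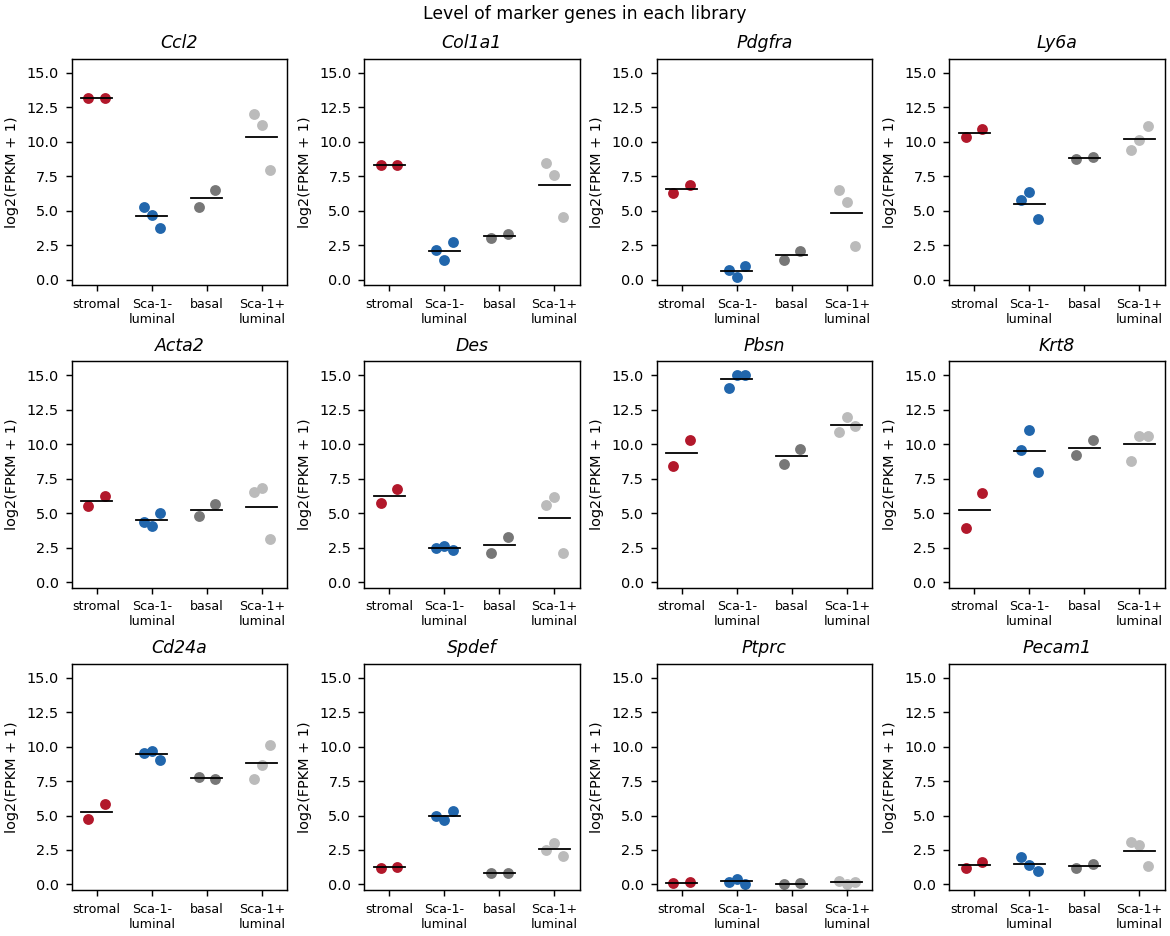
Level of 12 marker genes as log2(FPKM + 1) in each library (points) with the group mean (bar) for the stromal, Sca-1- luminal, basal and Sca-1+ luminal groups. Ccl2, Col1a1, Pdgfra and Ly6a are high in both stromal libraries, Pbsn, Krt8, Cd24a and Spdef are low there, and Ptprc and Pecam1 are near the bottom in all 5 libraries compared.

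Cell type lists gave the makeup of the stromal gate as far as transcripts show it. In bulk RNA, fewer cells of a type and less RNA per cell cannot be told apart. All 18 tested fibroblast markers of 18 were higher in stroma, with a median difference of 6.24. Dpt (dermatopontin, 7.21), Serpinf1 (7.27), Lum (lumican, 6.80) and Col1a2 (6.50) led, and Thy1 (3.40) and Fap (1.28) were at the lower end. The summed FPKM of the list was 9030 and 7000 in stroma and 93.2 to 167 in luminal cells. The list also stood at 6260 and 3170 in Sca-1+ luminal libraries 1 and 2 and at 462 in Sca-1+ luminal library 3, and 1 fit pooled the spread of all 4 groups.

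Smooth muscle markers were less clear. Of 19, 15 were tested, 5 were higher, none was lower and 10 were not called, with a median of 1.04. The list summed to 447 and 753 FPKM in stroma, 244, 384 and 182 in luminal cells, and 2110 and 3060 in the basal libraries. Des (desmin), an intermediate filament of muscle, gave 51.0 and 108 FPKM in stroma against 4.48, 5.08 and 3.92 (3.79, SE 0.99, limma BH-adjusted p = 0.0101), and Synpo2 (3.48), Smtn (smoothelin, 3.27), Synm (synemin, 2.07) and Ppp1r14a (1.61) were the others called. Ppp1r14a was not called without either stromal library or luminal library 1. Acta2 (smooth muscle actin) gave 44.5 and 76.0 FPKM in stroma and 19.8, 15.7 and 31.0 in luminal cells, with no overlap, but was not called (1.41, SE 0.93, limma BH-adjusted p = 0.228).

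A pair of defining contractile genes were low and overlapped between the groups. Myh11 (smooth muscle myosin) gave 5.12 and 5.93 FPKM in stroma and 3.72, 3.50 and 9.86 in luminal cells. Cnn1 (calponin) gave 3.22 and 7.52 against 6.00, 6.69 and 4.81. The number called higher fell without stromal library 2. It was 8 without Sca-1+ luminal library 3, and 8 in the fit to the 5 libraries alone. Acta2 was called in both of the last settings (limma, BH-adjusted p = 0.00824 and 0.0119). Without stromal library 2, Des was not called (limma, BH-adjusted p = 0.0768).

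Endothelial and leukocyte markers were low in both groups, and pericyte markers summed higher in stroma. Of 11 endothelial markers tested, Tek was higher (2.09) and 10 were not called; Pecam1 gave 1.33 and 2.17 FPKM in stroma and 2.92, 1.71 and 0.927 in luminal cells. Tek was not called without stromal library 1 (limma, BH-adjusted p = 0.192) or luminal library 2 (0.0502). The endothelial list had 2 genes higher without Sca-1+ luminal library 1, and 3 higher and 1 lower without Sca-1+ luminal library 3 or in the fit to the 5 libraries alone. Of 18 leukocyte markers 11 were tested and none was higher in stroma, 1 was lower and 10 were not called; the 1 lower, Mrc1 (-0.61), was not called without any 1 of the stromal or basal libraries or without luminal library 1. The count of lower leukocyte genes was 2 without luminal library 2 or 3 or Sca-1+ luminal library 3. Ptprc (CD45), which marks leukocytes, stayed between 0.0435 and 0.338 FPKM in the 5 libraries. The Lin- gate of both groups removes cells with immune or vessel antigens, so low levels of these lists check the sort. Of 8 pericyte markers 6 were tested and 3 were higher, Cspg4 (NG2, 3.83), Kcnj8 (2.61) and Abcc9 (1.78), while Notch3 and Higd1b were below the filter. The pericyte list summed to 34.9 and 57.4 FPKM in stroma against 5.35, 3.46 and 7.11 in luminal cells. With a stricter filter (2 libraries at 5 FPKM or more), 1 pericyte marker was called higher. Abcc9 was not called without stromal library 1 (limma, BH-adjusted p = 0.0822).

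Luminal libraries held more erythroid and glial transcripts than stroma. All 5 erythroid genes were lower in stroma, with a summed FPKM of 13.6 and 38.2 against 287, 214 and 1330; luminal library 3 was the highest. Without stromal library 1, 3 of the 5 were called. Of 5 tested glial genes 4 were lower, Mbp (-2.49), a myelin protein gene, among them, with sums of 2.87 and 3.48 in stroma and 22.1 to 24.4 in luminal cells. The glial list summed to 51.2 and 49.2 FPKM in the basal libraries. Without luminal library 1 or stromal library 1, 2 of the glial genes were called. Which cells these transcripts came from and their part in other differences were not tested.

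Basal markers were at low levels in both groups. Their sum was 46.7 and 208 FPKM in stroma and 297, 397 and 68.5 in luminal cells, against 8540 and 10200 in the basal libraries. Of 14 tested, 11 were not called, Krt5, Krt14 and Krt15 among them, Itga6 (-2.99) and Itgb4 (-1.67) were lower, and Aqp3 was higher (2.70). The direction of Itga6, the gene of the sorting antigen CD49f, only checks the gates. Aqp3, a water and glycerol channel, rested on stromal library 2 (63.7 FPKM) more than on library 1 (8.92), and was not called without library 2 (limma, BH-adjusted p = 0.316), nor without luminal library 1 or 3. Itgb4 was not called without stromal library 1 (limma, BH-adjusted p = 0.243), nor without either basal library, luminal library 1 or 2, or Sca-1+ luminal library 2.

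**Figure D3:**
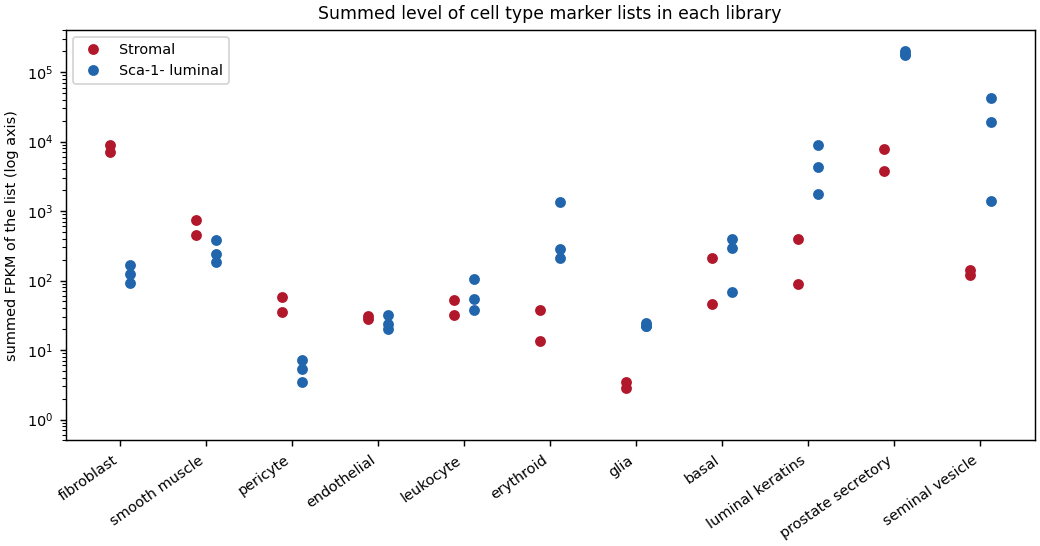
Summed FPKM of cell type marker lists (log axis) in each of the 2 stromal (red) and 3 Sca-1- luminal (blue) libraries. Fibroblast sums are 9030 and 7000 in stroma against 93.2 to 167 in luminal cells, prostate secretory sums run the other way, and endothelial and leukocyte sums overlap between the groups.

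Collagen and other matrix genes were higher in stroma over nearly the whole of their lists. Of 25 collagen genes 24 were tested, and 22 were higher in stroma, none was lower and 2 were not called, with a median of 3.92. The summed FPKM of the collagen list was 2260 and 2140 in stroma, and 2150, 1080 and 157 in the Sca-1+ luminal libraries. Fibrillar type I and III chains were the most abundant, Col3a1 with 566.6 and 383 FPKM against 4.50, 2.47 and 10.4 (6.28), beside Col1a2 (6.50) and the type VI chains Col6a1 (6.41) and Col6a2 (6.15), which form beaded microfibrils. The basement membrane chain Col4a1 was higher as well (4.87). The 2 not called were Col17a1, the hemidesmosome collagen of basal epithelium (0.484 and 1.05 FPKM against 3.20, 3.85 and 0.331), and Col4a6 (24.0 and 26.4 against 11.6, 8.78 and 18.9), which was called without Sca-1+ luminal library 1 or 3.

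All 41 tested matrix genes outside the collagens were higher, with a median of 5.00. Their list summed to 12500 and 10600 FPKM in stroma, and to 9540, 5230 and 968 in the Sca-1+ luminal libraries. Efemp1 (fibulin-3), a glycoprotein bound to elastic fibres, gave 850.5 and 734 FPKM in stroma against 4.08, 3.15 and 7.19, a difference of 7.15 (SE 0.60, limma BH-adjusted p = 4.13e-05). Decorin, the collagen-binding proteoglycan encoded by Dcn, gave 5091 and 3639 FPKM against 84.0, 69.2 and 105. Fbn1 (fibrillin-1, 6.02), Lox (the collagen and elastin cross-linking oxidase, 6.26), Bgn (biglycan, 6.44) and Eln (elastin, 5.50) were among the rest. The collagen and matrix lists together took 3.80% and 2.87% of the summed FPKM in stroma and 0.0351% to 0.0539% in luminal cells.

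Matrix proteases and their inhibitors were split by cell. Of 18 tested, 16 were higher in stroma and 2 lower, with a median of 3.56. Mmp2 (gelatinase A) gave 315 and 504 FPKM in stroma against 2.54, 1.91 and 5.12 (6.65, SE 0.76, limma BH-adjusted p = 0.000171), and Adamts4 (6.26), Mmp3 (5.69), Mmp14 (5.00) and the inhibitor Timp2 (4.29) were also higher. Mmp7 (matrilysin), a protease of glandular epithelium, ran the other way with 17.8 and 54.4 FPKM in stroma and 843, 1439 and 1522 in luminal cells (-5.25, SE 0.54, limma BH-adjusted p = 9.98e-05). The inhibitor Timp4 was the other gene lower in stroma (-4.34).

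Integrins, the receptors for matrix, were mixed. Of 16 tested, 7 were higher, 3 lower and 6 not called, with a median of 0.92. Itga5, the fibronectin receptor subunit, gave 277.5 and 215.5 FPKM in stroma against 3.71, 3.35 and 1.30 (6.09, SE 0.83, limma BH-adjusted p = 0.000404), and its partner Itgb1 was higher too (2.02). The laminin receptor subunits Itga6 (-2.99), Itga3 (-2.02) and Itgb4 (-1.67) were the 3 that were lower. Itga6 encodes the sorting antigen CD49f, so its direction checks the gates and is no finding. With a stricter filter (2 libraries at 5 FPKM or more), 4 integrins were called higher. Without stromal library 1, Itga6 was the 1 integrin still called lower, and Itga3 was not called (limma, BH-adjusted p = 0.0812).

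Genes for the making of hyaluronan, a glycan of loose matrix, differed step by step. Gfpt2, 1 of the 2 enzymes that open the hexosamine pathway (chr11:49794178-49838613, plus strand), gave 2569 and 1087 FPKM in stroma against 7.46, 3.18 and 2.86, a difference of 8.34 (SE 1.04, limma BH-adjusted p = 0.000258). The other, Gfpt1, ran the opposite way with 9.01 and 8.17 FPKM in stroma against 45.4, 37.5 and 33.3 (-2.04, SE 0.32, limma BH-adjusted p = 0.000799). Both genes separated the groups with no overlap.

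Several of the later steps were higher in stroma. Ugdh, which makes UDP-glucuronate, the other sugar donor, gave 2149 and 1934 FPKM against 16.1, 8.75 and 5.53 (7.63, SE 0.98, limma BH-adjusted p = 0.000308). The synthases Has1 (6.83) and Has2 (5.48) were higher, Has1 with 583 and 272 FPKM against 3.70, 1.69 and 2.42, and so were Uap1 (3.89) and the hyaluronan receptor Cd44 (3.92). Over the list of 14, 7 were higher, 3 lower and 4 not called, with a median of 0.82. The count of lower genes was 1 without either stromal library or luminal library 1.

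Chemokines were among the most abundant stromal transcripts. Of 20, 18 were tested, 12 were higher in stroma, 1 was lower and 5 were not called, with a median of 4.35. The list took 6.15% and 4.48% of the summed FPKM in stroma and 0.0207% to 0.046% in luminal cells. Ccl7, a monocyte chemokine whose gene lies beside Ccl2, gave 6667 and 5623 FPKM against 25.0, 17.2 and 9.63 (8.48, SE 0.94, limma BH-adjusted p = 0.000144). Cxcl1, a neutrophil chemokine, gave 5668 and 3291 FPKM against 38.9, 21.5 and 10.2 (7.65, SE 0.88, limma BH-adjusted p = 0.000174).

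The others included Cxcl13 (6.12), which draws B cells, Cxcl14 (5.81), Ccl11 (5.64), which draws eosinophils, Cxcl5 (5.38), Cxcl2 (5.36) and Cxcl12 (5.33). Cxcl17, a chemokine of mucosal epithelium, was the 1 that was lower (1.76 and 4.05 FPKM in stroma against 20.7, 28.5 and 12.9). It was not called without stromal library 1 (limma, BH-adjusted p = 0.0589).

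Cytokines behaved likewise. Of 15 tested, 9 were higher, 1 lower and 5 not called, with a median of 4.33. Without luminal library 3, 2 were lower. Il6 gave 1904 and 1349 FPKM in stroma against 26.1, 16.3 and 12.6 (6.44, SE 0.58, limma BH-adjusted p = 5.44e-05). Csf1, the growth factor of macrophages, gave 1056 and 635 FPKM against 6.58, 5.15 and 2.01 (7.30, SE 1.06, limma BH-adjusted p = 0.00055). Both stromal libraries were above every luminal library for both cytokines.

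Lif (6.29), Csf2 (6.00), Il11 (5.66), Il33 (5.47), Tslp (4.93), Il34 (4.33) and Csf3 (4.05) completed the 9. Il15, which supports T and NK cells, was lower in stroma, with 1.01 and 1.74 FPKM against 15, 9.65 and 21.9 (-2.75, SE 0.33, limma BH-adjusted p = 0.000204). Socs3, a feedback inhibitor of IL-6 family receptors, was higher in stroma (4.55).

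Promoters are shown for 3 of these genes because they moved together and hold a match to the NF-kappaB consensus, the binding motif of a factor of inflammatory gene control. Each sequence is the 250 bases before the RefSeq gene start (GRCm38.p6), 5′ to 3′ on the gene's strand, with the motif in capitals. The windows are chr5:90890995-90891244 for Cxcl1, chr5:90903649-90903898 for Cxcl2 and chr5:30012864-30013113 for Il6, all on the plus strand.
Cxcl1: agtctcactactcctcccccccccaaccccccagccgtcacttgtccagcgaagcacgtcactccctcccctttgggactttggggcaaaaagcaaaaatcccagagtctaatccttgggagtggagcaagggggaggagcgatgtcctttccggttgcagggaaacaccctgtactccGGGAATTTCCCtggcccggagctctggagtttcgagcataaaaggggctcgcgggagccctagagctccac
Cxcl2: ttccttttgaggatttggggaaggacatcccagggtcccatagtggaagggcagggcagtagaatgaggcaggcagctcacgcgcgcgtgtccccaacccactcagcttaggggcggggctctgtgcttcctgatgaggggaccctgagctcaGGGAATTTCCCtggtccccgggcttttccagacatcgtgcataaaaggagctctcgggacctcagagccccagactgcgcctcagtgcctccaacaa
Il6: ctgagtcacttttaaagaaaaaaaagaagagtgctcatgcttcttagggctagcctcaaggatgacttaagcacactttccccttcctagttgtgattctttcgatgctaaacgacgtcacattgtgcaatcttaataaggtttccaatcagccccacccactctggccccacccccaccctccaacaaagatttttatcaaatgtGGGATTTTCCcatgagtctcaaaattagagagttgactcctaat

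In Cxcl1 and Cxcl2 the capitals are overlapping matches on both strands, from 71 to 61 and from 97 to 87 bases before the start. In Il6 the match lies 44 to 35 bases before the start on the gene's strand. Of the 21 chemokine and cytokine genes called higher, 14 had a promoter in the table and 5 of those (35.7%) held the consensus on either strand, namely Csf1, Cxcl1, Cxcl10, Cxcl2 and Il6. Over all 27025 promoters the share was 3.75%, and over the 9646 promoters of tested genes 4.54%. Base composition was not matched, and the lists were chosen with earlier results of these data known, so the shares test nothing. A match describes the sequence and says nothing of binding in these cells.

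Complement genes, whose products tag and clear particles in tissue fluid, were higher in stroma in 12 of 15 tested, with 3 not called, none lower and a median of 5.36. C3, the central component, gave 490 and 166 FPKM in stroma against 0.818, 0.128 and 1.86 (7.31, SE 1.02, limma BH-adjusted p = 0.000449). Serping1, the inhibitor of the first component, was the most abundant, with 1559 and 1515 FPKM against 9.03, 6.79 and 19.4 (7.04). C7 (7.45), the pattern receptor Ptx3 (7.61), Cfb (5.56), C1s1 (5.54) and C2 (4.50) were also higher. C1ra, a protease of the first component, did not differ by the test and was close in level (130 and 129.9 FPKM against 106, 107.8 and 136).

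**Figure D4:**
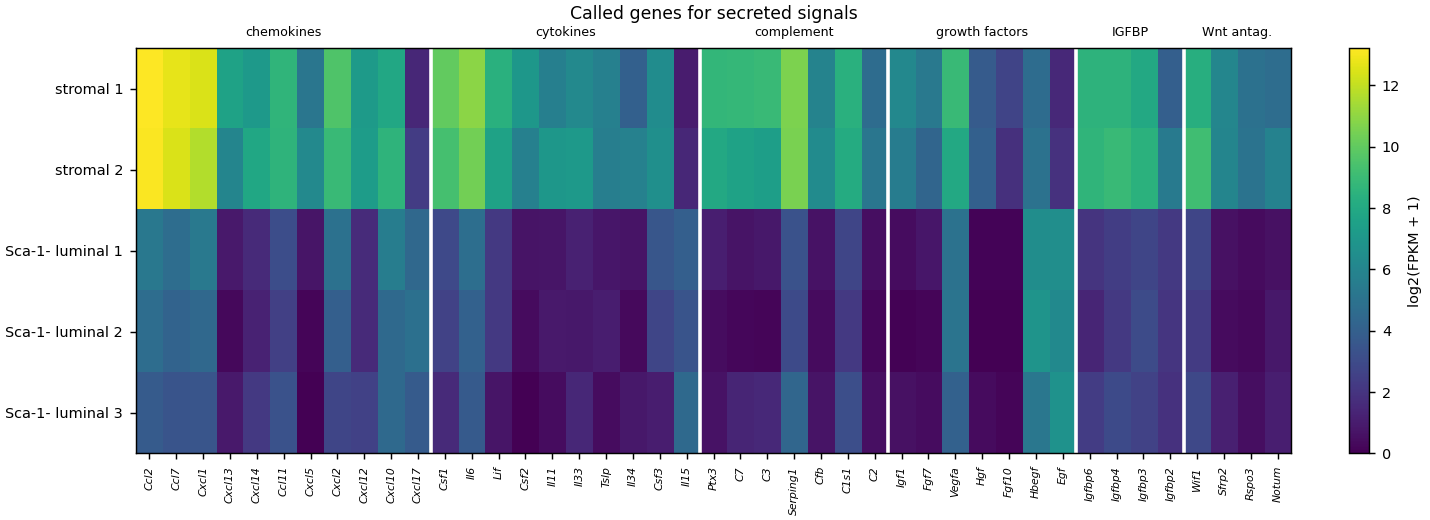
Level as log2(FPKM + 1) of the called genes named in the text for secreted signals in each of the 5 libraries, in 6 lists separated by white lines and sorted within a list by the difference. Most columns are bright in both stromal rows and dark in the 3 luminal rows, with Cxcl17, Il15, Hbegf and Egf the exceptions.

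Prostaglandin genes split between the 2 cyclooxygenases. Ptgs2 (COX-2), the inducible enzyme, gave 1670 and 1268 FPKM in stroma against 12.9, 9.11 and 3.26 (7.43, SE 0.92, limma BH-adjusted p = 0.000248). Ptgs1 (COX-1) gave 6.86 and 4.15 FPKM against 28, 24.7 and 28.9 (-2.15, SE 0.33, limma BH-adjusted p = 0.000701). Both separated the groups without overlap, in opposite directions.

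The prostacyclin synthase Ptgis (5.64) and the prostaglandin E synthase Ptges (2.41) were higher in stroma. The carbonyl reductases Cbr2 (-4.21) and Cbr1 (-2.74) and the degrading enzyme Hpgd (-2.39) were lower. Over the list, 7 of 14 tested were higher and 5 lower, with a median of 1.19. The count of lower genes was 3 without stromal library 2 or without luminal library 3, and Hpgd lost its call in both cases, and also without luminal library 1.

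Transcripts of immediate early and stress genes, which rise within minutes of handling or stimulation, did not move one way. Of 23 tested, 8 were higher, 6 lower and 9 not called, with a median of -0.04 and a range of -2.36 to 4.55. Ier3 gave 1869 and 1686 FPKM in stroma against 214.5, 290.1 and 70.5 (3.43), and Junb was higher (1.70). Atf3 was lower, with 185 and 261.5 FPKM against 1471, 1133 and 872 (-2.36, SE 0.42, limma BH-adjusted p = 0.00145), and so was Jun (-1.64). Counts here were 4 higher and 2 lower without stromal library 1 and 3 lower without stromal library 2, and Jun was not called without either stromal library or luminal library 3. Junb was not called without stromal library 1 (limma, BH-adjusted p = 0.0923). Their part in the chemokine and cytokine differences was not tested.

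Transcription factors of mesenchyme were higher in stroma in 23 of 26 tested, with none lower, 3 not called and a median of 2.61. Tcf21, a fibroblast regulator, gave 358 and 420 FPKM in stroma against 1.86, 0.975 and 3.40, a difference of 7.06 (SE 0.82, limma BH-adjusted p = 0.000184). Zeb1 (5.13), a repressor of epithelial genes, gave 63.2 and 94.1 FPKM against 1.58, 0.829 and 1.38, and its relatives in that role followed, Snai1 (3.14) and Zeb2 (2.66). Both stromal libraries exceeded every luminal library in all 26 tested. Hic1 (4.82), Prrx2 (4.76), Osr2 (4.70), Twist2 (4.41), Prrx1 (4.37), Foxf1 (4.33), Wt1 (4.01) and Twist1 (3.01) were further members.

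Epithelial transcription and splicing factors mirrored them, with 15 of 18 tested lower, 1 higher, 2 not called and a median of -3.10. Spdef, a factor of secretory epithelium, gave 1.31 and 1.43 FPKM against 30.0, 24.8 and 39.1 (-3.75, SE 0.31, limma BH-adjusted p = 4.04e-05). The groups did not overlap.

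Ehf (-4.47), Bhlha15 (-4.12), which equips cells for secretion, Foxa1 (-3.85), Elf3 (-3.01) and Grhl2 (-2.73) were lower, as were the epithelial splicing regulators Esrp1 (-3.68) and Esrp2 (-3.19). Creb3l1 was the member higher in stroma, with 38.9 and 45.4 FPKM against 2.49, 1.86 and 3.52 (3.60), while its relative Creb3l4 was lower (-3.42). Both encode factors that are released from the endoplasmic reticulum.

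Hox genes, which give position along the body, were divided. Of 25, 16 were tested, 6 were higher, 2 lower and 8 not called, with a median of -0.21. Hoxb13, a gene of the prostate and hindgut (chr11:96194316-96197447, plus strand), gave 6.54 and 9.78 FPKM in stroma against 207, 133 and 277 (-4.46, SE 0.41, limma BH-adjusted p = 6.47e-05). Hoxd13, which lies at the same end of another cluster, ran the other way with 16.5 and 21.3 FPKM against 1.77, 1.88 and 2.38 (2.72, SE 0.27, limma BH-adjusted p = 8.24e-05).

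Its neighbours Hoxd11 (2.14) and Hoxd10 (1.68) were also higher, and Hoxa11 stood at 8.20 and 10.7 FPKM in stroma and was listed at 0 in all 3 luminal libraries. With a stricter filter (2 libraries at 5 FPKM or more), 3 Hox genes were called higher. The count of lower Hox genes was 1 without stromal library 1 or luminal library 3 and 4 without luminal library 2.

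Secreted signals of developmental pathways came next, ligands first. Of 9 Wnt ligands tested, 6 were higher in stroma, 1 lower and 2 not called, with a median of 1.66. Wnt11 gave 44.4 and 42.2 FPKM in stroma against 0.758, 0.223 and 0.309 (4.97, SE 0.94, limma BH-adjusted p = 0.00209), and Wnt2 gave 36.5 and 55.2 against 0.125, 0.394 and 1.34 (4.90). Wnt10a (3.20) and Wnt5a (1.66) were higher as well. Wnt7b, an epithelial ligand, was lower, with 0.347 and 0.585 FPKM against 7.54, 5.21 and 4.92 (-2.22), and was not called without stromal library 1 (limma, BH-adjusted p = 0.0587). With a stricter filter (2 libraries at 5 FPKM or more), 3 Wnt ligands were called higher.

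Secreted antagonists of Wnt and the R-spondins, which strengthen Wnt signals, were higher in 8 of 10 tested, with none lower and a median of 2.99. Without luminal library 2, 1 was lower. Wif1, which binds Wnt outside the cell, gave 315 and 569 FPKM in stroma against 5.77, 4.00 and 6.26 (6.08, SE 0.74, limma BH-adjusted p = 0.000236). Sfrp2 (5.35), Rspo3 (4.59) and Notum (4.43), an enzyme that strips Wnt of its lipid, followed.

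In the TGF-beta and BMP list 12 of 19 tested were higher, none was lower and 7 were not called, with a median of 2.73. Without luminal library 3, 1 was lower. Fst (follistatin), an activin trap, gave 408 and 334 FPKM in stroma against 3.38, 4.19 and 1.15 (6.66, SE 0.68, limma BH-adjusted p = 9.64e-05). The ligands Gdf10 (5.88), Inhba (4.62), Bmp2 (4.24), Bmp4 (4.07), Tgfb1 (2.90) and Tgfb3 (2.73) were higher, and so was the BMP trap Nog (1.89). Tgfb3 was not called without stromal library 1 (limma, BH-adjusted p = 0.0734).

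Growth factor ligands were higher in stroma in 15 of 23 tested, lower in 2 and not called in 6, with a median of 1.65. Igf1 gave 72.0 and 45.4 FPKM in stroma against 0.332, 0.067 and 0.486 (5.50, SE 0.77, limma BH-adjusted p = 0.000436). Fgf7, a stromal factor for epithelial growth, gave 39.4 and 18.6 FPKM against 0.733, 0.153 and 0.349 (4.34, SE 0.68, limma BH-adjusted p = 0.000759). Both stromal libraries lay above every luminal library for both ligands.

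Fgf10, its close relative, was lower in level, with 5.64 and 2.59 FPKM against 0.082, a listed 0 and 0.148 (2.18), and was not called without stromal library 1 (limma, BH-adjusted p = 0.0701). Vegfa (3.75) and Hgf (3.74) were also higher. Egf ran the other way, with 1.89 and 2.73 FPKM in stroma against 92.9, 76.3 and 105.8 (-4.81, SE 0.29, limma BH-adjusted p = 1.26e-05). The other ligand lower in stroma was Hbegf (-1.35), which was not called without any 1 of the stromal or basal libraries, luminal library 1 or 2, or Sca-1+ luminal library 2.

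Growth factor receptors were divided, with 6 of 15 tested higher, 5 lower and 4 not called, and a median of -0.07. Fgfr1 gave 179.6 and 180.6 FPKM in stroma against 2.28, 2.34 and 2.44 (5.76, SE 0.83, limma BH-adjusted p = 0.00054), and Pdgfra (5.93), Ddr2 (4.79), a collagen receptor, Pdgfrb (4.28) and Egfr (2.75) were higher. Erbb3, a partner in neuregulin signalling, gave 0.309 and 0.254 FPKM against 7.92, 6.21 and 7.04 (-2.65, SE 0.28, limma BH-adjusted p = 0.000117), and Met (-1.82), the receptor for Hgf, and Erbb2 (-1.20) were lower. The count of lower receptors was 3 without stromal library 1.

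All 6 IGF binding proteins tested, which hold IGF in the tissue, were higher, with a median of 4.90. Igfbp6 gave 375 and 405.5 FPKM in stroma against 2.99, 1.61 and 4.06 (6.71, SE 0.90, limma BH-adjusted p = 0.000372), and Igfbp4 (6.23) and Igfbp3 (5.41) were next. The smallest difference was that of Igfbp2 (2.66), which was not called without stromal library 2 (limma, BH-adjusted p = 0.189) or without any 1 of the luminal libraries.

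In the hedgehog list 6 of 10 tested were higher, none was lower and 4 were not called, with a median of 1.73. The target genes Gli1 (2.70), Hhip (2.48) and Ptch1 (1.60), the transducer Smo (2.35) and the co-receptor Gas1 (3.40) were higher in stroma. Gli1 was listed at 0 in luminal libraries 1 and 2 and gave 4.64 and 6.71 FPKM in stroma. The ligand Shh stayed under 1 FPKM in all 5 libraries. Gas1 was not called without stromal library 1 (limma, BH-adjusted p = 0.081).

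Retinoid genes, which make and read retinoic acid, were higher in 9 of 13 tested, lower in 1 and not called in 3, with a median of 2.84. Rdh10, the first enzyme of retinoic acid synthesis, gave 74.8 and 158 FPKM in stroma against 7.03, 3.23 and 3.81 (4.33, SE 0.37, limma BH-adjusted p = 4.43e-05). The second step, by Aldh1a2 (2.84) and Aldh1a3 (3.54), and Rarres2 (chemerin, 5.60) were higher. Crabp1, a carrier of retinoic acid, was the gene lower in stroma, with 1.37 and 2.91 FPKM against 81.2, 64.3 and 35 (-4.25).

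**Figure D5:**
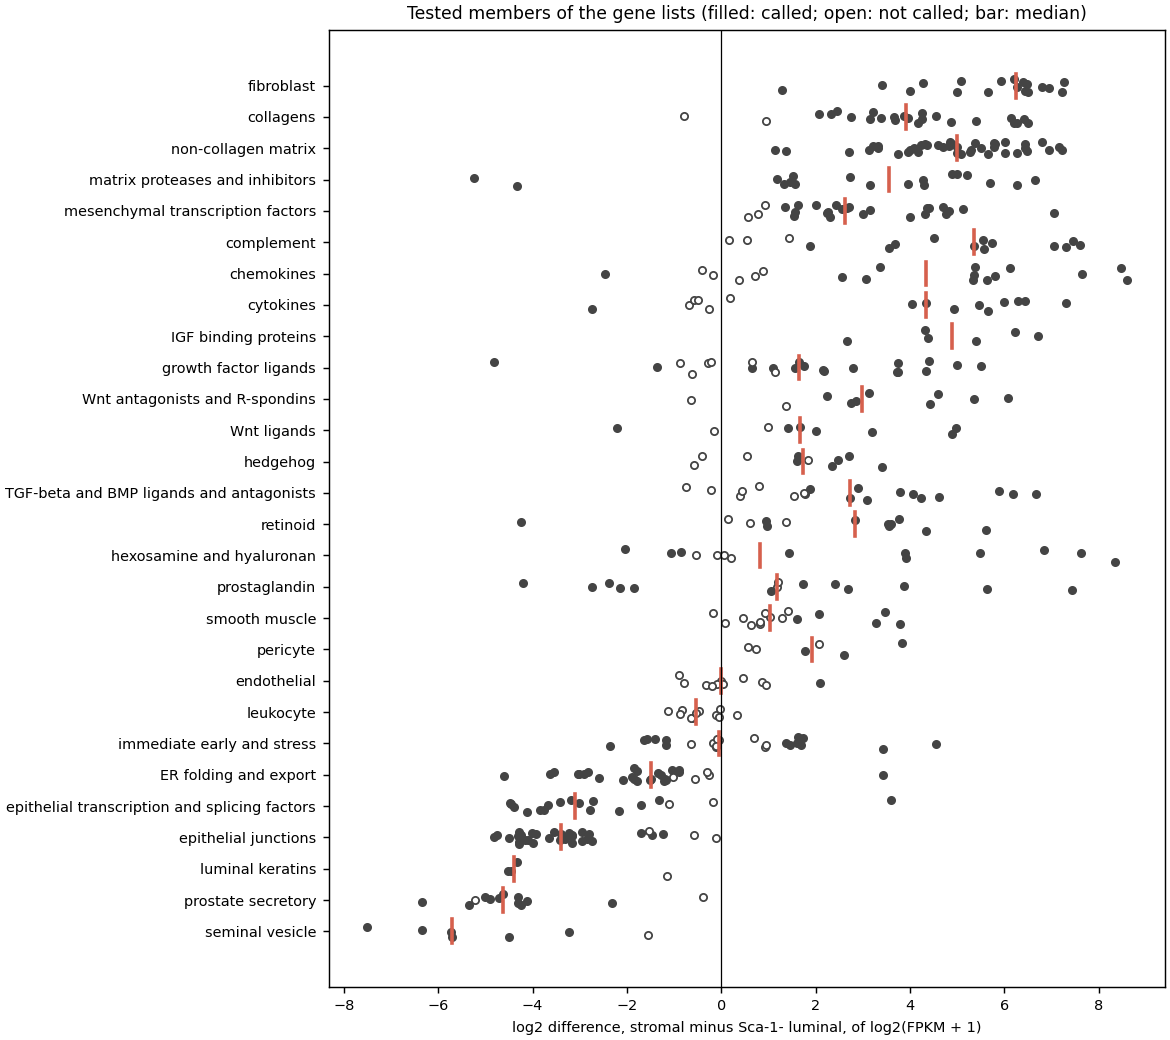
Difference of each tested member of 28 gene lists (points, stromal minus Sca-1- luminal, log2 scale; filled when called, open when not called) with the list's median (bar). Fibroblast, non-collagen matrix and complement lists lie to the right of 0 and collagens, matrix proteases and chemokines mostly so, epithelial lists lie mostly and secretory and seminal vesicle lists wholly to the left, and the endothelial, leukocyte and immediate early lists straddle 0.

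The luminal side was led by secretory genes. Of 16 prostate secretory genes 13 were tested, 11 were lower in stroma, none was higher and 2 were not called, with a median of -4.62. The list took 28.9% to 31.8% of the summed FPKM in luminal cells and 0.983% and 1.78% in stroma. Tgm4, the transglutaminase of the copulatory plug, gave 126 and 254 FPKM in stroma against 5498, 5032 and 6819 (-5.00, SE 0.39, limma BH-adjusted p = 3.6e-05). Azgp1 (-4.89), the antibody transporter Pigr (-4.72), the protease Tmprss2 (-4.31), Defb50 (-4.31) and Msmb (-4.24) were also lower.

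Spink1, a trypsin inhibitor of the gland's fluid, took 13.8% to 21.2% of all luminal FPKM. It gave 2289 and 3767 FPKM in stroma against 128900, 122200 and 84220, with no overlap, and yet was not called (-5.23, SE 2.53, limma BH-adjusted p = 0.108). The Sca-1+ luminal libraries gave 7848, 13620 and 7.96 FPKM, and without the third of these Spink1 was called (limma, BH-adjusted p = 6.52e-05). Sbpl, with an SE of 1.95, gave 83.6 and 162 FPKM in stroma against 9345, 9101 and 10190 in luminal cells. Its values in the Sca-1+ luminal libraries were 361, 474.5 and 0.664 FPKM. Msmb was not called without stromal library 1 (limma, BH-adjusted p = 0.0813), and Sbpl (-6.34) not without either stromal library or luminal library 3.

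Seminal vesicle genes, whose products belong to the neighbouring gland, were lower in stroma in 6 of 7 tested, with 1 not called and a median of -5.72. Svs4 gave 20.4 and 4.94 FPKM in stroma against 2467, 327 and 10740 in luminal cells (-7.51, SE 1.15, limma BH-adjusted p = 0.000692), the greatest decrease among the genes named by size. Svs5 (-6.34), Pate4 (-5.73) and Svs2 (-5.72) followed. In all 6 luminal library 2 was the lowest luminal library and luminal library 3 the highest, and the sums of the list were 18900, 1410 and 42700 FPKM against 140 and 120 in stroma. Whether these transcripts were made in the sorted cells was not tested.

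The genes that fold and export proteins at the endoplasmic reticulum were lower in stroma in 25 of 30 tested, higher in 1 and not called in 4, with a median of -1.50. Derl3, which helps to clear misfolded proteins, gave 2.99 and 6.41 FPKM in stroma against 107, 139 and 153.5 (-4.61, SE 0.39, limma BH-adjusted p = 4.32e-05). The signal peptidase subunit Sec11c (-3.63), Sdf2l1 (-3.54), Ssr4 (-3.03) and the disulphide isomerase Pdia6 (-2.60) were next.

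The abundant chaperones differed less. Hsp90b1 (-1.50), P4hb (-1.27) and Calr (-1.18) were lower, the last 2 not without stromal library 1. Hspa5 (BiP) gave 1248 and 1115 FPKM in stroma against 2971, 2660 and 1723, with no overlap, and was not called (-1.02, limma BH-adjusted p = 0.116), although it was without Sca-1+ luminal library 3 (limma, BH-adjusted p = 0.047). Ero1l, an oxidase induced by low oxygen, was the member higher in stroma, with 88.8 and 162 FPKM against 11.8, 14.4 and 6.10 (3.44).

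In the Golgi list 4 of 16 tested were higher, 7 lower and 5 not called, with a median of -0.51. The fucosyltransferase Fut2 gave 0.264 and 0.661 FPKM in stroma against 17.8, 14.0 and 26.7 (-3.78), and B3gnt7 was lower too (-3.20). St3gal4, a sialyltransferase, was higher (2.37). The count of higher genes was 1 without either stromal library or luminal library 3, and 2 without either basal library, luminal library 1 or 2, or Sca-1+ luminal library 2.

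Keratins and cell junctions marked the epithelium. Of the 4 luminal keratins, Krt18 (-4.53), Krt19 (-4.46) and Krt8 (-4.34) were lower in stroma, and Krt7 was not called (4.30 and 18.2 FPKM against 27.3, 39.2 and 8.87). Of 33 junction and polarity genes tested, 30 were lower, none was higher and 3 were not called, with a median of -3.39. Epcam, an adhesion protein of epithelia, gave 14.8 and 64.0 FPKM in stroma against 736, 1298 and 271 (-4.32, SE 0.81, limma BH-adjusted p = 0.00197). Spint2, an inhibitor of membrane proteases, gave 16.9 and 36.6 FPKM against 678, 708 and 829 (-4.83, SE 0.50, limma BH-adjusted p = 0.000104).

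The claudins Cldn8 (-4.75), Cldn3 (-4.50), Cldn7 (-4.29) and Cldn4 (-3.92), Rab25 (-4.28), Ocln (-3.98), Cdh1 (E-cadherin, -3.55) and Dsp (-2.81) were among the others. Cldn4 was not called without stromal library 1 (limma, BH-adjusted p = 0.0597). Tjp1, a scaffold of tight junctions, was not called, with 7.21 and 5.01 FPKM in stroma against 10.8, 11.5 and 6.77.

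Promoters of 3 epithelial genes are shown because they hold the letters CAGGTG, the E-box that repressors of the Snail and Zeb families read, more than once. Capitals mark CAGGTG, or CACCTG where it lies on the other strand, in the 250 bases before the RefSeq start (GRCm38.p6). The windows are chr17:87635729-87635978 (plus strand) for Epcam, chr3:88548280-88548529 (minus strand) for Rab25 and chr7:29281978-29282227 (minus strand) for Spint2.
Epcam: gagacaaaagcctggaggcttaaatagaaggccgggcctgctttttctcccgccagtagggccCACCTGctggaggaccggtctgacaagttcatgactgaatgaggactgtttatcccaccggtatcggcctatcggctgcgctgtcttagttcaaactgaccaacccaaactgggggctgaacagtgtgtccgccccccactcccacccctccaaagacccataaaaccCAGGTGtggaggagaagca
Rab25: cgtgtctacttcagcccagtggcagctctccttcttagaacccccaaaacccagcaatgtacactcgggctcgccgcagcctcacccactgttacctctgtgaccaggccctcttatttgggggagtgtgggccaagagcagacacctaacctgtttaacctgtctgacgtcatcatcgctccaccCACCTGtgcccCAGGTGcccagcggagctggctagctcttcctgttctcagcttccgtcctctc
Spint2: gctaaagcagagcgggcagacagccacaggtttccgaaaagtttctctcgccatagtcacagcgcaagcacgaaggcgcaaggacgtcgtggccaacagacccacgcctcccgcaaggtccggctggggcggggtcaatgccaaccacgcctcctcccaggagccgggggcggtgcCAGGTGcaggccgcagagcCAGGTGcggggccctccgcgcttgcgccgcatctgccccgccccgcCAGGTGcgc

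Epcam held matches starting 187 and 19 bases before the start, Rab25 at 64 and 53, and Spint2 at 74, 55 and 9. Of the 45 epithelial junction and regulator genes called lower, 26 had a promoter in the table and 13 of these (50%) held CAGGTG on either strand. Over all 27025 promoters the share was 17.1%, and over the 9646 promoters of tested genes 15.3%. Base composition was not matched, and the lists were chosen with earlier results of these data known, so these shares test nothing either. A match says nothing of binding.

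Androgen-responsive genes did not follow 1 direction. Of 15 tested, 5 were higher in stroma, 7 lower and 3 not called, with a median of -1.15. Slc45a3 (-3.84), Eaf2 (-3.30) and the co-chaperone Fkbp5 (-1.67) were lower beside Tmprss2. Steap4, a metal reductase, was higher, with 66.7 and 130 FPKM in stroma against 1.93, 0.586 and 2.04 (5.28, SE 0.84, limma BH-adjusted p = 0.000849), and so were Ndrg1 (4.50) and Pmepa1 (4.42).

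Small-molecule lists showed single genes rather than a shared direction. In the polyamine list, 2 of 12 tested were higher, 1 lower and 9 not called (median 0.20), and Sat1, the enzyme that sends spermine and spermidine to export, gave 1989 and 1868 FPKM in stroma against 212, 156 and 143 (3.51, SE 0.44, limma BH-adjusted p = 0.000268). In the zinc list 5 of 14 were higher, 4 lower and 5 not called (median 0.40), with the importer Slc39a14 higher (2.98) and the vesicle transporter Slc30a2 lower (-2.61). The number higher was 3 without either stromal library. In the polyamine list 1 was higher without stromal library 2 or luminal library 1 or 2, and 2 were lower without luminal library 2 or Sca-1+ luminal library 3. In the sterol and fatty acid list 3 of 24 were higher, 8 lower and 13 not called (median -0.40), with Scd2 (-2.17) and Dhcr7 (-2.04) lower. The 3 higher became 0 without luminal library 1 or 2, 1 without stromal library 2 or luminal library 3, and 5 without Sca-1+ luminal library 3.

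Cell cycle genes did not move one way. Their summed level was 137 and 170 FPKM in stroma, of which Rrm2 alone gave 66.4 and 113, and 32.5 to 57.1 in luminal cells. Of 18, 13 were tested, 5 were higher in stroma, 3 lower and 5 not called, with a median of -0.21. Rrm2, a subunit of the enzyme that makes deoxynucleotides, gave 66.4 and 113 FPKM in stroma against 9.45, 4.34 and 4.85 (3.67, SE 0.60, limma BH-adjusted p = 0.000957), and Pcna was higher (1.42). The count of lower genes was 1 without stromal library 1 or luminal library 1 and 0 without stromal library 2. Mki67, the marker of cycling cells, stayed under 1 FPKM in all 5 libraries and was not tested.

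Genes outside the lists that had the greatest differences by the naming rule included Penk, which encodes the precursor of enkephalins, with 3751 and 4611 FPKM in stroma against 19.7, 13.2 and 19.5 (7.84, SE 0.95, limma BH-adjusted p = 0.000231). The interferon-inducible gene Ifi205 (7.74), the oestrogen sulphotransferase Sult1e1 (7.56) and thrombomodulin, Thbd (7.38), were the other increases. The decreases outside the lists were Gm5615 (-5.63), A630095E13Rik (-5.47), 9530053A07Rik (-5.39), the renin gene Ren1 (-5.40), Fgl1 (-5.29), Cd52 (-5.25), the ribonuclease Rnase1 (-5.19) and Tcaf3 (-5.18). Ren1, for renin, gave 12.1 and 25.8 FPKM in stroma against 584, 793.5 and 1059. In luminal libraries 1 to 3, Cd52 gave 365, 96.4 and 492 FPKM and Tcaf3 513, 170 and 552. That is the order of the seminal vesicle genes, lowest in library 2 and highest in library 3. A630095E13Rik and 9530053A07Rik had this order with smaller gaps, and Gm5615, Ren1, Fgl1 and Rnase1 did not. The source of these transcripts was not tested.

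Some genes were listed at 0 in 1 whole group and at 20 FPKM or more throughout the other. The 7 listed at 0 in luminal cells were Pltp (111 and 174 FPKM in stroma), Tspan4, Slc16a3, Ifi27l2a, Gm21451, Ramp2 and Alkbh1. The 11 listed at 0 in stroma were Nme3 (85.2, 86.1 and 99.9 FPKM in luminal cells), H2-Ke6, Commd1, Smim27, Ang, Ten1, Yipf2, Pigp, Chid1, Mff and Znhit1. The second set holds genes that most cells use, such as the mitochondrial fission factor gene Mff, and an exact 0 in such a table can be a failed estimate. In the first set, Alkbh1 gave 31.8 and 31.6 FPKM in the basal libraries. The loci of Tspan4 and Chid1, which were listed at 0 in opposite groups, overlap on chr7. Genes of both sets are therefore given as listed at 0, with no fold.

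The 2 stromal libraries were not equal. Of 4815 tested genes with a stromal mean of 10 FPKM or more, 389 differed by over 2-fold between them on the FPKM + 1 scale, 303 of these higher in library 2 and 86 higher in library 1. Of the 30 junction genes called lower, 27 were higher in stromal library 2 than in library 1, as were 10 of 11 secretory genes and all 3 keratins. The called junction genes stood at a median of 2.52% of the luminal mean in library 1 and 7.31% in library 2, the keratins at 1.66% and 7.87%, and the secretory genes at 2.41% and 4.39%. Libraries of the other groups also differed among themselves: the summed keratin level was 4290, 8850 and 1770 FPKM in the luminal libraries, 2770 and 4070 in the basal ones and 2550, 6090 and 9400 in the Sca-1+ luminal ones. In the other direction, the 18 fibroblast genes stood in luminal libraries 1 to 3 at a median of 0.894%, 0.422% and 1.59% of the stromal mean. How much of these low levels came from cells or RNA carried across the gates was not tested.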

How the data were processed

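RNA from the sorted cells was made into libraries with the NuGEN Ovation RNA-Seq System V2 and a TruSeq DNA kit and sequenced on an Illumina HiSeq instrument, per the labels' protocols. The submitters' processing notes name bcl2fastq 1.8.3, TopHat, Cufflinks and mm10; for other versions and strand use, the sources used here give nothing. The deposited tables hold FPKM per transcript and a coverage signal by the authors; the deposited coverage was used in no test. Of 63241 transcripts, 53011 (83.8%) were given a gene by their mm10 locus (GENCODE vM21, RefSeq). For 22657 of them (GENCODE) and 3913 (RefSeq), 1 shared end was enough, with no set minimum of overlap. Where no end was shared (5143), at least 0.5 overlap was required. Transcripts under 300 nt (8006) were left out, as were 7 genes with a failed estimate (Lama2 and Sbp in the lists), and FPKM were summed per gene. Reads of overlapping, antisense or near-identical genes may be split between them.

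limma 3.58.1 (R 4.3.3; trend, 6 residual degrees of freedom) fitted 1 mean per group to log2(FPKM + 1) in all 10 libraries, with Benjamini-Hochberg adjustment over all 12433 genes; the script was tested on simulated data. Low values were whole multiples of 1 fragment, within 0.05, in 88.1% to 91.8% of cases in the 5 libraries at estimated depths of 22.8 to 25.0 M (mega) fragments, searched from 15 M to 32 M. FPKM give no interval for counting error. Replicates were numbered in accession order.

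Genes named were 4 given markers, members of 41 lists, the 15 greatest called increases and decreases among genes at 10 FPKM or more in every library of the higher group, above 0 in all 5 libraries and without overlap, and genes listed at 0 in 1 group. The members and lists were chosen with earlier results of these data known. Alternatives were another pseudocount, filter, scaling or set of libraries, transcripts of any length, and leaving out each library. Some genes of the lists are counted but not reported here by name.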

Additional observations from a re-analysis of the deposited data

How the results depend on the processing

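No paired analysis was possible because the labels give no replicate numbers, animals or days. Over the pseudocounts, filters, scalings and sets of libraries tried, 4999 to 7005 genes were called, against 6542. Leaving out 1 library gave 4327 (without stromal library 1) to 7062 genes, with 2169 to 3679 lower in stroma; where 1 stromal library was left, it was assumed to vary like the other groups.

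For the list counts, leaving out 1 library gave 3 to 8 smooth muscle genes higher, 3 to 5 erythroid genes lower, 3 to 6 zinc genes higher, 3 to 5 growth factor receptors lower, 3 to 5 prostaglandin genes lower, and 4 to 8 immediate early genes higher with 2 to 6 lower. Smooth muscle had 8 genes higher in the fit to the 5 libraries alone and 8 with no Sca-1+ luminal libraries. With the filter of 5 FPKM in at least 2 libraries, in which fewer genes were tested, 4 integrins, 3 Hox genes and 3 Wnt ligands were higher.

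The direction turned for 3 named genes, none of them called. Cnn1 ranged from -0.69 to 0.33, Myh11 from -0.13 to 0.50 and Pecam1 from -0.26 to 0.25 when 1 library was left out. Myh11 was -0.10 without luminal library 1 and -0.00 without stromal library 2. Pecam1 was 0.25 without luminal library 1, 0.21 without stromal library 1, 0.02 with a pseudocount of 0.1 and 0.04 with median-of-ratios scaling. The cause of these changes was not tested.

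FPKM and 2 or 3 libraries per group limit the precision, most of all for genes under a few FPKM, and a listed 0 cannot be told apart from a failed estimate.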
